A study of Vitis labrusca x Vitis vinifera with 9 samples.

Results

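The genes described here are 3 dirigent protein genes of grapevine: dirigent protein 22 (GSVIVT00024744001), dirigent protein 7 (GSVIVT00024739001) and a dirigent family gene (GSVIVT00002504001) whose closest Arabidopsis gene in the array annotation is AT4G23690. They are 3 of 30128 probes on the array, and each is represented by 1 probe. They were picked by identifier after their log2 ratios on these arrays were known: the first pair for large increases after hydrogen cyanamide, and the family gene for opposite signs after pruning and hydrogen cyanamide. Their ratios are therefore given as a description, without a test.

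Dirigent proteins are small secreted proteins of land plants without catalytic activity of their own. Oxidases such as laccases and peroxidases turn monolignols, the alcohols from which lignin and lignans are built, into radicals, and a dirigent protein holds the radicals so that they couple in a defined orientation. The family was first described from Forsythia, where it sets the stereochemistry of the lignan pinoresinol. In Arabidopsis, the protein of AT4G23690 directs the same coupling towards the opposite enantiomer, and another member is needed for the lignin of the Casparian strip of the root. Several family members were first known as disease resistance response genes, a name that the annotation of the array keeps. The roles of the grapevine proteins are not given in the annotation.

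Buds were taken from mature canes of 5-year-old plants of a Vitis labrusca x Vitis vinifera grapevine in late summer, 24 h after pruning (P), after a 1% spray of hydrogen cyanamide (HC), with which growers release buds from dormancy, or after both (PHC). All treatments were applied to dormant buds at node 8 from the base of the cane, and canes of P and PHC were cut 2 cm from that node. Control buds were sprayed with water on unpruned canes. Each sample pooled the buds of 10 single nodes, and each treatment had 3 arrays. The methods of the study place the canes in randomized complete blocks, which the sample titles do not name. The sample labels list the HC canes as pruned, whereas the methods of the study describe them as not pruned, so the contrast of HC with PHC rests on the methods.

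Each array carried treated RNA in Cy5 and control RNA in Cy3, and 0 arrays had the dyes exchanged, so that a dye effect of a probe cannot be told apart from the treatment in any ratio against control. The share of probes well above background was 80.6 to 88.9% in Cy3 and 83.6 to 90.3% in Cy5. Log2 ratios of all probes correlated between replicates at 0.516 to 0.846 for P, 0.504 to 0.66 for HC and 0.823 to 0.916 for PHC. As a check of the tissue, words for shoot meristem and for wood matched 0 probe names. Both matched chlorophyll-binding protein probes were well above background on 9 of 9 arrays in both channels, with mean log2 ratios between −0.61 and 0.07. The 1 probe matched by a word for root, of a root hair defective family, was also well above background on 9 of 9 arrays in both channels. Its means were between −0.79 and −0.29. These matches therefore do not identify the tissue.

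Dirigent protein 22 was higher in treated than in control buds on each of the 9 arrays, by a small amount after P and by a very large one after HC and PHC. Log2 ratios above 0 on all arrays of a treatment were found for 28% of probes after P, 22.3% after HC and 35.2% after PHC. Its log2 ratios after P were 1.16, 0.64 and 1.26 in replicates 1, 2 and 3. After HC they were 7.48, 5.63 and 7.55, and after PHC they were 5.18, 5.24 and 4.89. The ratios of the 3 treatments did not overlap: every HC array was above every PHC array, and every PHC array above every P array. The spread between replicates was widest after HC, where replicate 2 was lowest.

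The mean log2 ratio of dirigent protein 22 was 1.02 ± 0.33 (SD, n = 3) after P, a 2.03-fold increase. It was 6.89 ± 1.09 after HC and 5.10 ± 0.19 after PHC, or 118-fold and 34.4-fold. Among the 26395 probes that were bright enough to test, its mean ranked 867 from the top for P, 1 for HC and 11 for PHC. With another background correction (normexp) and loess normalization, the HC rank was again 1 and the HC mean was 5.88, while the P mean was only 0.53 and the PHC mean 3.98. The P rank was then 1852 and the PHC rank 13. Under normexp with median centring the ranks were 9235 for P, 1 for HC and 21 for PHC. In whole buds, more transcript per cell and more cells that express a gene cannot be told apart.

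The signals of both channels lie behind these ratios. The Cy3 (control) signal, background-subtracted and dye-normalized by the scanner software, was 73.7, 126 and 99.2 on the P arrays, 138, 582 and 119 on the HC arrays, and 191, 318 and 358 on the PHC arrays. The Cy5 (treated) signal was 164, 197 and 238 on the P arrays, 24531, 28878 and 22401 on the HC arrays, and 6912, 11992 and 10642 on the PHC arrays. On HC replicate 2, which had the lowest HC ratio, both channels had the highest signal of the 3, and these signals are not scaled between arrays. On 9 of 9 arrays the control spot was well above background, so that each ratio of this gene was measured on both sides. The margin was small on some arrays. Before background subtraction the Cy3 signal was 50.1 against a background of 32.1 on P replicate 1. It was 57.9 against 32.4 on HC replicate 1, and 161 against 27.5 on HC replicate 2.

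Dirigent protein 7 was also higher in treated buds on every array by the deposited ratios, and by those its increase after P was larger than that of dirigent protein 22. Its log2 ratios were 2.75, 2.51 and 3.23 after P. They were 7.43, 5.78 and 5.91 after HC, and 6.02, 5.77 and 5.50 after PHC. All HC and PHC arrays lay above all P arrays, whereas HC and PHC overlapped, with only HC replicate 1 standing clear of the PHC values. The means were 2.83 ± 0.37 (SD, n = 3) after P, 6.37 ± 0.92 after HC and 5.76 ± 0.26 after PHC. They ranked 36, 2 and 3 from the top.

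The control level of dirigent protein 7 was at the limit of what the arrays could measure. Its Cy3 signal was 6.96, 8.88 and 10.9 on the P arrays, 6.61, 54.2 and 15.5 on the HC arrays, and 10.8, 27.0 and 30.1 on the PHC arrays. Only HC replicate 2, 1 of 9 arrays, had a control spot well above background, and the treated spot was well above background on 9 of 9. The Cy5 signal was 46.8, 50.6 and 102 on the P arrays, 1139, 2971 and 930 on the HC arrays, and 705, 1473 and 1360 on the PHC arrays.

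The size of the increase of dirigent protein 7 is therefore given as a lower bound, which depends on the normalization. With each control set no lower than the lowest Cy3 signal that was well above background on its array, the rise of the transcript was at least 1.39-fold after P, and after PHC it was at least 4.85-fold, computed per channel after loess and between-array (Aquantile) normalization. After HC, where 1 of 3 controls was measured, the corresponding value was 9.25-fold. Under normexp with loess the mean log2 ratios were 0.53, 3.21 and 2.28 after P, HC and PHC, with ranks of 1846, 112 and 333, and under normexp with median centring the P value was −0.061, so that the bound after P does not hold across normalizations. The direction after P thus differed between normalizations, while the HC and PHC values stayed above 2 on the log2 scale under both.

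The dirigent family gene behaved unlike both others. Its log2 ratios were 0.53, 1.61 and 1.96 after P, above 0 on each array. After HC they were −1.86, −0.83 and −1.22, below 0 on each array, as were those of 28% of probes. After PHC they were −1.09, 0.71 and −0.18, on both sides of 0, and only their mean lay between the means after the single treatments. All P arrays lay above all HC arrays, and the PHC arrays overlapped both.

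The mean log2 ratio of the family gene was 1.37 ± 0.75 (SD, n = 3) after P, or 2.58-fold higher. It was −1.30 ± 0.52 after HC, or 2.47-fold lower, and −0.19 ± 0.90 after PHC, which is smaller than its own spread. Ratios above 0 on all P arrays and below 0 on all HC arrays, for which the gene was chosen, were found for 3.56% of the 26341 probes with a value on every array. The 2 signs were the same under normexp with loess (1.31 and −0.98) and with median centring (1.59 and −0.87), and the PHC mean was −0.07 and 0.38.

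Both channels of the family gene were well above background on 9 of 9 arrays. Its Cy3 signal was 1250, 744 and 896 on the P arrays, 1517, 1109 and 655 on the HC arrays, and 2688, 1414 and 1992 on the PHC arrays. Its Cy5 signal was 1805, 2274 and 3493 on the P arrays, 418, 624 and 282 on the HC arrays, and 1259, 2310 and 1762 on the PHC arrays. These signals are not scaled between arrays, and the plot of channel levels gives them after such scaling.

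**Figure D1:**
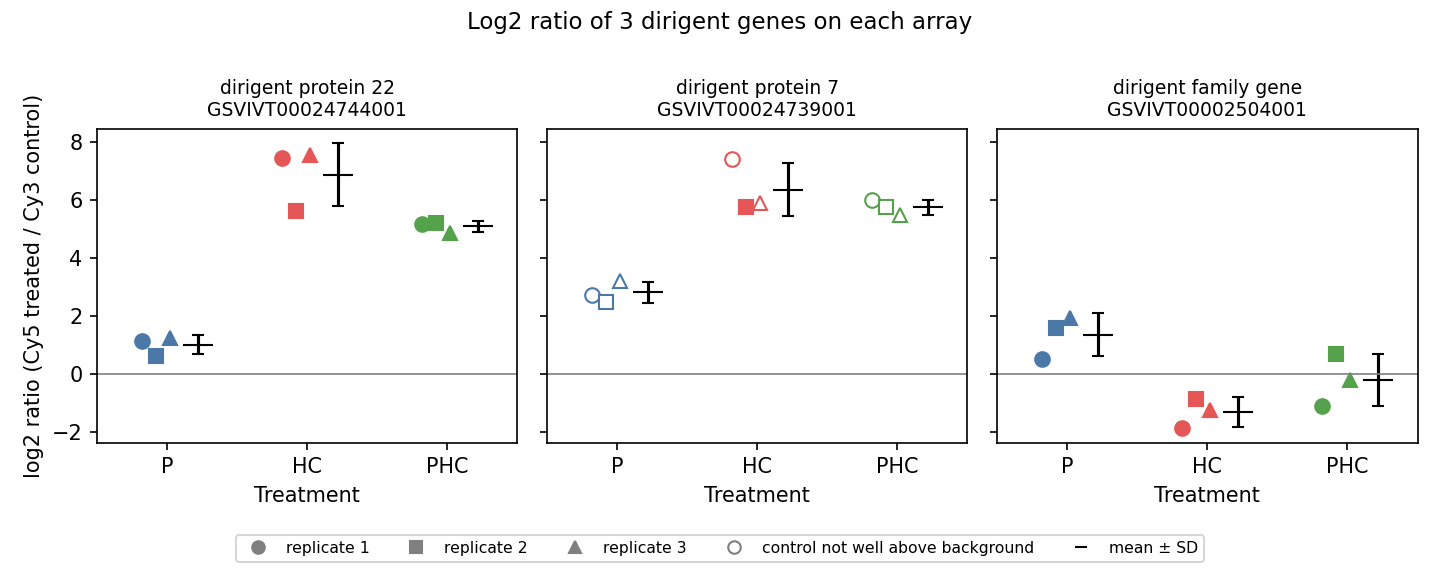
Log2 ratio of treated (Cy5) over control (Cy3) signal on each of the 9 arrays for the 3 dirigent genes, by treatment, with the mean and SD of 3 arrays beside the points; open symbols mark arrays on which the control spot was not well above background. Dirigent protein 22 lies between 4.89 and 7.55 after HC and PHC and between 0.64 and 1.26 after P, and the dirigent family gene is above 0 after P and below 0 after HC.

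The treatments were then set against each other. For dirigent protein 22, HC exceeded P by 5.87 on the log2 scale, PHC exceeded P by 4.08, and PHC minus HC was −1.78. The last difference was negative in each of the 3 replicate numbers, at −2.30, −0.40 and −2.66, and so was small in replicate 2. Over all probes, 12.1% had every HC array above every P array, 22.6% every PHC array above every P array, and 19.7% every HC array above every PHC array.

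For dirigent protein 7, HC exceeded P by 3.54 and PHC exceeded P by 2.93. Its difference between PHC and HC was −0.61, with −1.40, −0.01 and −0.41 by replicate number, and was smaller than the pooled SD of 0.68. For the family gene, HC minus P was −2.67, and 17.5% of probes had every P array above every HC array. PHC minus P was −1.56 and PHC minus HC was 1.11, with the same sign in each of the 3 replicate numbers although the arrays overlapped.

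The PHC means were set beside the sum of the P and HC means. For dirigent protein 22 the sum of the P and HC means was 7.91, and the PHC mean was 2.80 below it, a gap of 2.43 under normexp with loess and 1.81 with median centring. For dirigent protein 7 the sum was 9.20 and the PHC mean lay 3.44 below it, a gap of 1.46 under normexp with loess and 0.94 with median centring, in a gene whose controls were mostly not measured. For the family gene the opposite P and HC means summed to 0.07, which differs from the PHC mean of −0.19 by less than its SD of 0.90. Whether the treatments share control samples is not given in the labels, and these sums are given as values only.

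**Figure D2:**
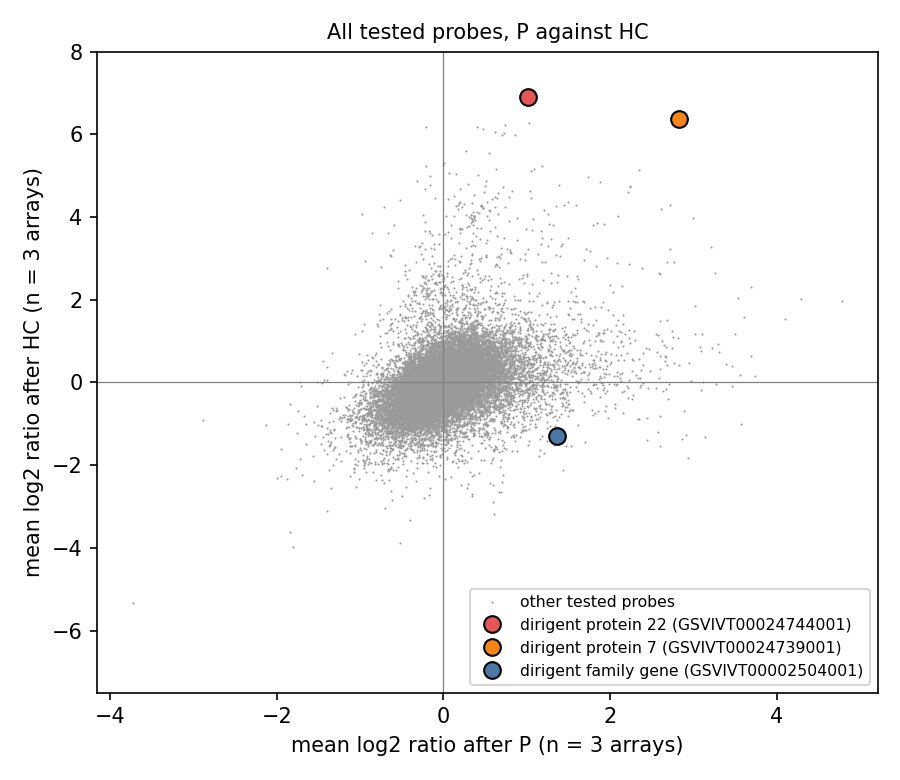
Mean log2 ratio after HC (vertical) against that after P (horizontal), 3 arrays each, for the 26395 tested probes; grey points are single probes and large coloured points the 3 dirigent genes. Dirigent protein 22 (1.02 and 6.89) and dirigent protein 7 (2.83 and 6.37) lie at the top of the cloud, and the dirigent family gene (1.37 and −1.30) lies at its lower right.

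Levels in each channel were compared between arrays after loess and Aquantile normalization. For dirigent protein 22, the log2 Cy5 level was 7.46, 7.20 and 7.31 after P, 13.40, 13.08 and 13.47 after HC, and 10.94, 11.62 and 10.83 after PHC. Its Cy3 level varied over 1.25 log2 units across the 9 arrays, against 6.27 for Cy5. The differences between treatments in this gene thus lay mainly in the treated buds. Among the HC arrays, replicate 2 had the highest Cy3 level on this scale, at 7.85 against 7.52 and 6.95 in replicates 1 and 3. Its Cy5 level was the lowest of the HC arrays. The order HC above PHC above P, without overlap, was found in the Cy5 levels of 1.29% of the tested probes.

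Dirigent protein 7 had the same order, with Cy5 levels of 6.63, 6.40 and 6.89 after P, 9.49, 10.39 and 9.22 after HC, and 8.30, 8.98 and 8.60 after PHC. On this scale HC and PHC did not overlap, unlike in the ratios. Its Cy3 level spanned 0.86 log2 units and its Cy5 level 3.99. The control was well above background on only 1 of 9 arrays, so the Cy3 span does not show how steady the control level was. Before this scaling its Cy3 signal ranged from 6.61 to 54.2.

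The family gene had the reverse order: its Cy5 levels were 10.15, 10.26 and 10.61 after P, 8.17, 8.14 and 7.87 after HC, and 8.79, 9.50 and 8.57 after PHC. That order without overlap was found for 0.693% of tested probes, and any complete order of the treatments for 12.1%. In this gene the control level also moved, by replicate number rather than by treatment. The Cy3 level was 9.62 to 9.65 on the arrays numbered 1, 8.74 to 8.82 on those numbered 2 and 8.64 to 8.74 on those numbered 3.

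The arrays numbered 1 thus had the highest control level of the family gene in all treatments, and their ratio was the lowest of each treatment. Of the tested probes, 23.7% had Cy3 levels on the arrays numbered 1 above those of the other 6 arrays, and 11.1% of probes with complete values had their lowest ratio there in each treatment. The arrays numbered 1 also had the lowest median Cy3 signals. Whether the controls of a number are the same RNA is not given in the labels, and its part in the spread of the ratios was not tested.

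**Figure D3:**
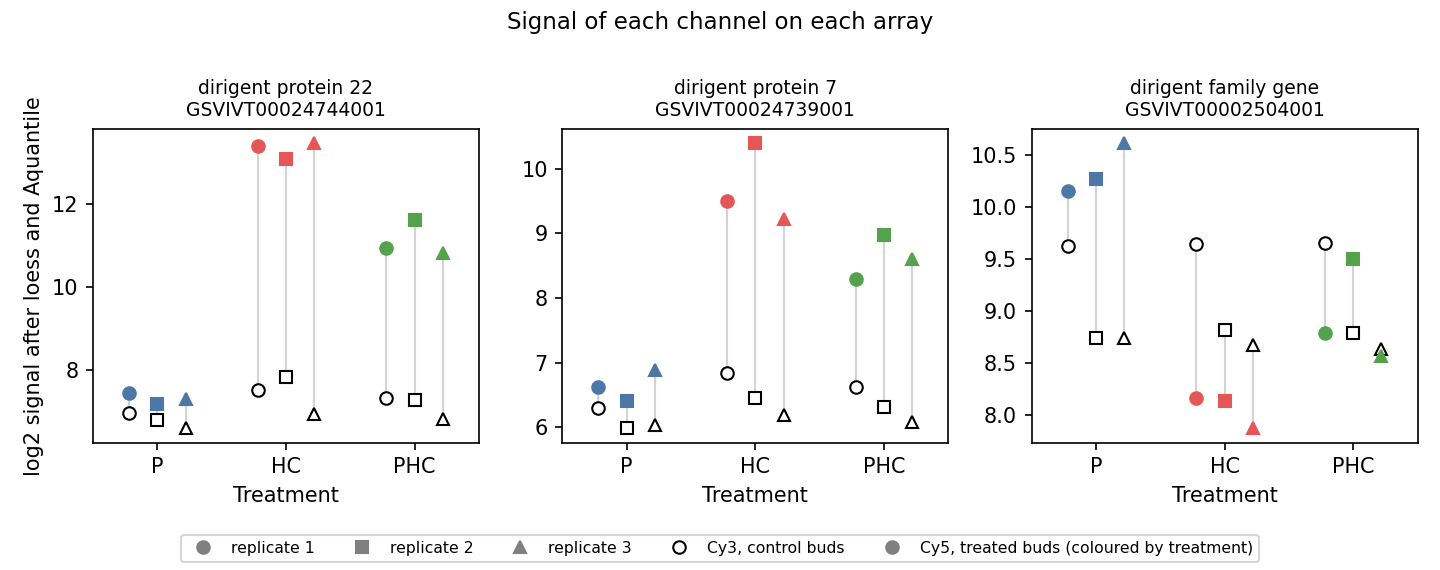
Log2 signal of the control (Cy3, open) and treated (Cy5, filled) channel on each array after loess and Aquantile normalization, by treatment, with a line joining the channels of an array; the vertical scale differs between panels. The Cy5 levels of the 3 treatments do not overlap in any panel, and the open symbols of the dirigent family gene fall at 9.62 to 9.65 in replicate 1 against 8.64 to 8.82 in replicates 2 and 3.

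Other probes of the family were found by the words dirigent or disease resistance-responsive in their names. There were 9, of which 7 were bright enough to test with limma on the log2 ratios, at an adjusted p below 0.05 (Benjamini-Hochberg) and at least a 2-fold change. Of these 7, 4 were called higher for P, 3 for HC and 4 for PHC, and 0 fell after any treatment, also at an unadjusted p below 0.05. Over all tested probes 2.75, 5.16 and 13.5% rose and 0.572, 4.75 and 11.7% fell. The falling shares depended on the scaling, with 0.269, 1.77 and 7.29% lower and 1.74, 3.96 and 10.6% higher under normexp with loess, and 0.148, 1.13 and 2.83% lower and 3.32, 5.11 and 20.8% higher with median centring. The median log2 ratios of the 7 were 1.15, 0.71 and 1.39, beside −0.03, −0.03 and −0.07 over all tested probes. Under normexp with loess 3 of the 7 rose after each treatment, with medians of 0.22, 0.48 and 0.26, and with median centring 3 rose, with medians of 0.52, 0.57 and 0.34.

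The study had chosen 3 of these 7 on the same arrays, in a list of genes changed by all treatments, which also holds dirigent proteins 22 and 7, so their direction is not independent evidence. Of the 4 tested probes outside that list, limma called 1 higher for P, 0 for HC and 1 for PHC. At an unadjusted p below 0.05, 1 of the 4 was higher after each treatment. The median log2 ratios of the 4 were 0.20, 0.11 and 0.16.

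The 4 relatives that rose differed in which treatment moved them most. Another probe named dirigent protein 22 (GSVIVT00024738001) had a mean log2 ratio of 3.82 ± 0.59 (SD, n = 3; limma adjusted p = 1.63e-05) after HC, against 1.26 ± 0.44 after P (limma adjusted p = 0.012) and 1.39 ± 0.26 after PHC (limma adjusted p = 0.000878). Its control was well above background on 1 of 9 arrays. Under normexp with loess its ratios were 0.22, 1.41 and 0.26, with median centring −0.47, 1.39 and −0.34, and only the HC rise was called under either. Its P rise was also lost without P replicate 1 (1.09, limma adjusted p = 0.0762) or without P replicate 3 (1.20, limma adjusted p = 0.077).

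Dirigent protein 19 (GSVIVT00024747001) rose after all treatments, by 1.15 ± 0.11 after P, 2.15 ± 0.29 after HC and 2.23 ± 0.23 after PHC (limma adjusted p = 0.00294, 2.01e-05 and 7.15e-06). Its control was well above background on 9 of 9 arrays, and its calls were also made under both other normalizations.

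A further probe named dirigent protein 22 (GSVIVT00028613001) had its highest mean after PHC, at 3.64 ± 0.51, with 1.57 ± 0.85 after P and 1.53 ± 0.27 after HC (limma adjusted p = 1.89e-05, 0.0134 and 0.00454). GSVIVT00036083001, matched to Arabidopsis AT2G21100, rose by 3.73 ± 0.58 after PHC and 1.52 ± 0.84 after P (limma adjusted p = 1.7e-05 and 0.0148), and its HC mean of 0.71 ± 0.07 did not pass (limma adjusted p = 0.097). The P call of each was lost without P replicate 2 or 3, with means still above 1. Without P replicate 2 the mean of GSVIVT00028613001 was 1.30 (limma adjusted p = 0.127) and that of GSVIVT00036083001 was 1.20 (limma adjusted p = 0.135). Without P replicate 3 they were 1.35 and 1.36 (limma adjusted p = 0.0902 and 0.0943).

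Differences between treatments were also tested in the relatives, a test added after their values were seen. It was fitted without a replicate block, although same-numbered arrays deviated together, so its p-values ignore that pairing. In limma, 8.55% of all tested probes were called higher after PHC than after HC and 5.33% lower. PHC exceeded HC by 3.02 in GSVIVT00036083001 (limma adjusted p = 0.00199) and by 2.11 in GSVIVT00028613001 (limma adjusted p = 0.00713). In GSVIVT00024738001 PHC minus HC was −2.43 (limma adjusted p = 0.00179), but −1.15 under normexp with loess and −1.73 with median centring, and its size is uncertain because its controls were mostly not measured. In dirigent protein 19 it was 0.07 (limma adjusted p = 0.8).

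Against P, HC was higher by 2.55 in GSVIVT00024738001 (limma adjusted p = 0.00225) and by 1.00 in dirigent protein 19 (limma adjusted p = 0.0137), in a comparison where 3.35% of probes were higher and 3.13% lower. Under normexp with loess the first was 1.19, and that of dirigent protein 19 was 0.86 and not called, nor was it with median centring (0.78). PHC was higher than P by 2.21 in GSVIVT00036083001, 2.07 in GSVIVT00028613001 and 1.08 in dirigent protein 19 (limma adjusted p = 0.00813, 0.0103 and 0.00668), beside 4.85% of probes higher and 4.82% lower. The value of dirigent protein 19 was 0.98 under normexp with loess, below the fold limit. Family members can be close in sequence, and since probe sequences were not used here, signal shared between them was not tested.

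The other 3 tested relatives, GSVIVT00025426001, GSVIVT00029526001 and GSVIVT00025422001, had mean log2 ratios between −0.37 and 0.61 in the 3 treatments, none of them called. GSVIVT00020441001 and GSVIVT00029525001 were well above background on 0 of 9 arrays in either channel and were not tested.

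**Figure D4:**
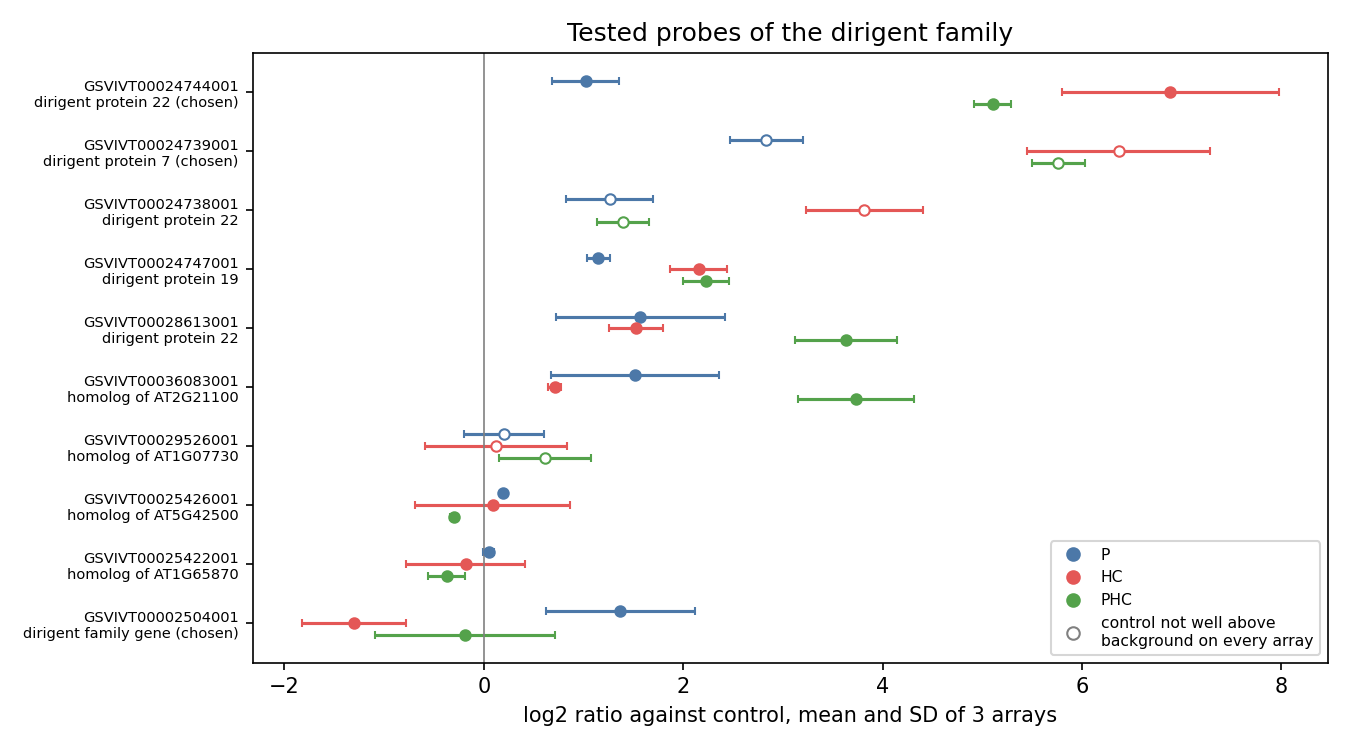
Mean log2 ratio against control with the SD of 3 arrays after P, HC and PHC for the 10 tested probes of the dirigent family, the 3 chosen genes marked; open points mark groups in which the control was not well above background on every array. Dirigent proteins 22 (GSVIVT00024744001) and 7 stand highest after HC, GSVIVT00028613001 and GSVIVT00036083001 stand highest after PHC, and only the chosen family gene has a mean below −1.

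The pathway that supplies monolignols was read from the same fit. The entry enzymes of this pathway, phenylalanine ammonia-lyase and 4-coumarate-CoA ligase, turn phenylalanine into activated cinnamic acids. The ligase probes were annotated only as family or putative proteins, and their place in this pathway was not tested. Of 6 probes matched by name to the entry, 2 rose after P, 3 with HC and 5 with PHC, and 0 fell. At an unadjusted p below 0.05, 1 was lower after P and after PHC. Over all tested probes 2.75, 5.16 and 13.5% rose. Their median log2 ratios were 1.00, 0.88 and 1.15. 3 of them, all named as phenylalanine ammonia-lyases, were in the study's own list from these arrays, and GSVIVT00013924001 among them is named as a pseudogene. All calls after P and after HC came from these 3 probes, so those calls are not independent evidence. The ligase family probes GSVIVT00003591001 and GSVIVT00017901001 rose after PHC by 2.34 ± 0.14 and 2.06 ± 0.35 (SD, n = 3, limma adjusted p = 8.93e-05 and 1.88e-05). The calls after P were all lost when any 1 P array was left out, although the median stayed between 0.94 and 1.12. Those after HC were lost without HC replicate 1 or 2, with medians of 0.76 and 0.64. The PHC count was 2 without PHC replicate 1.

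Among all tested probes, 2.75, 5.16 and 13.5% were called higher after P, HC and PHC, and 0.572, 4.75 and 11.7% lower. Of 8 probes for later monolignol steps, limma called 0 after P, 1 higher after HC, and 1 higher and 2 lower after PHC. With median centring the PHC calls of these 8 were 3 higher and 0 lower. At an unadjusted p below 0.05, 1 was higher and 1 lower after P. The median log2 ratios were −0.09, 0.13 and −0.42. After PHC, cinnamoyl-CoA reductase family probes, for the enzyme that reduces the activated acids, moved both ways: GSVIVT00028610001 rose by 1.89 ± 0.54 and GSVIVT00024039001 fell, with −1.55 ± 0.16 (SD, n = 3; limma adjusted p = 0.000854 and 1.93e-05), the latter at −0.90 and not called with median centring. The single HC call was lost without HC replicate 2 or 3.

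The oxidizing enzymes that make the radicals were represented by peroxidases, since words for laccase matched 0 probe names. Ascorbate and glutathione peroxidases were left out by their names only, and whether each remaining probe is for an enzyme that oxidizes monolignols was not tested. Of 42 tested peroxidase probes, P raised 8 and lowered 1, HC raised 8 and lowered 12, and PHC raised 15 and lowered 10, with median log2 ratios of 0.24, −0.28 and −0.04. Over all tested probes 2.75, 5.16 and 13.5% were higher and 0.572, 4.75 and 11.7% lower. Every peroxidase called in this fit was in the study's own lists of changed genes from these arrays. No tested peroxidase outside those lists was called, so these counts are not independent evidence. Under normexp with loess HC raised 5 and lowered 3, and with median centring it raised 7 and lowered 2, so the balance after HC turned with the scaling. The largest means were those of a peroxidase N1-like probe (GSVIVT00031593001) and a cationic peroxidase 2-like probe (GSVIVT00031598001) after PHC, at 4.68 ± 0.77 and 4.34 ± 0.55 (SD, n = 3; limma adjusted p = 0.0012 and 0.000717). Both are in the study's list, and their controls were well above background on 6 of 9 arrays. The number of peroxidase calls after P was 1 without P replicate 2 and 3 without P replicate 3.

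Of 3 isoflavone reductase probes, limma called 0 after P, with 0 also at an unadjusted p below 0.05. Their family includes the reductases that act on pinoresinol in Forsythia. After P, HC and PHC, 0.572, 4.75 and 11.7% of all tested probes were called lower. GSVIVT00014594001 fell after HC and PHC, with means of −1.45 ± 0.78 and −1.03 ± 0.60 (SD, n = 3; limma adjusted p = 0.0129 and 0.0335). Its HC call was lost without HC replicate 1 or 3, and its PHC call without PHC replicate 1 or 3 and under both normexp settings.

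The named genes whose 9 log2 ratios were nearest to those of each dirigent gene were found by root mean square difference, over 7041 tested probes with a name. Nearest to dirigent protein 22 was a putative 12-oxophytodienoate reductase 11 (GSVIVT00021918001), of the enzyme family that acts in jasmonate synthesis, at 0.50 log2 units, with means of 1.03, 6.27 and 5.36 after P, HC and PHC. Then came the ethylene-responsive transcription factor ERF098-like (GSVIVT00020219001) at 0.89, an uncharacterized gene (GSVIVT00028349001) at 1.06, a crocetin glucosyltransferase (GSVIVT00003476001) at 1.15 and the ethylene-responsive transcription factor 1B-like (GSVIVT00002192001) at 1.43. Of these, only the glucosyltransferase had a control well above background on 9 of 9 arrays.

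For dirigent protein 7 the nearest genes were the same reductase at 1.20, the uncharacterized gene at 1.47, the glucosyltransferase at 1.51, a BTB/POZ domain protein (GSVIVT00021238001) at 1.53 and GSVIVT00022221001, named as a glucan endo-1,3-beta-glucosidase and so of a family that cleaves callose, at 1.66. Thus 3 of its 5 neighbours were also among the 5 of dirigent protein 22, although the distances were larger.

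The nearest genes of the dirigent family gene were a cationic peroxidase 1-like gene (GSVIVT00037460001) at 0.61, an aspartyl protease family gene (GSVIVT00019250001) at 0.65, peroxidase 64 (GSVIVT00015486001) at 0.70, a pectate lyase family gene (GSVIVT00030705001), for an enzyme class that cleaves pectin, at 0.71, and an S-locus lectin protein kinase family gene (GSVIVT00026123001) at 0.73. The mean log2 ratios of the cationic peroxidase were 0.81, −1.31 and −0.38 after P, HC and PHC, and those of peroxidase 64 were 1.02, −1.53 and −0.77. Each of these 5 neighbours had a control well above background on 9 of 9 arrays.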

How the data were processed

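The log2 values were deposited by the authors as Cy5 over Cy3 after background subtraction and rank-consistent LOWESS in Agilent Feature Extraction 10.5, and the intensity values as processed and mean signals per spot. Probes were 60 bases long. Here 81 outlier values were left out, and 3733 dim probes were not tested. The other 26395 were fitted in limma 3.58.1 under R 4.3.3, with files read by jsonlite 2.0.0 and data.table (1.17.8), as treatment means over 9 arrays (residual degrees of freedom 6, prior 2.74), and p-values were adjusted by Benjamini-Hochberg over all of them. The fit was tested on simulated data. Normexp used an offset of 50 and the background the software had used. Plots were made in Python 3.11.15 with matplotlib 3.10.9. The series' own table of log2 values differed by at most 0.005. Authors' p-values were not used.

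Named were the 3 genes, relatives with a call, the 5 nearest named probes of each and up to 2 called members of each other list with the largest change. Names came from the study's supplementary lists (439 probes) and then from Arabidopsis descriptions (6981 probes). The genes and lists were chosen with earlier results of these data known. The labels call the replicates biological. Alternatives were other normalizations, the series table, outliers kept, other filters and thresholds, separate fits, leaving out each array and a replicate block. A test of the differences in relatives, also under other normalizations, was added after the values were seen.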

Additional observations from a re-analysis of the deposited data

Results flagged for a closer look

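In 3 dirigent probes the arrays of P and PHC, or of P and HC, lay on opposite sides of 0. Over all probes with complete values, 3.56% were above 0 on all P arrays and below 0 on all HC arrays. The share for P and PHC was not computed, so the number 3 is not read as a result about the family. GSVIVT00002504001, the dirigent family gene chosen for this pattern, had a mean log2 ratio of −1.30 after HC and 1.37 after P, a difference of −2.67 that was not tested. GSVIVT00025426001 had −0.30 after PHC and 0.19 after P, a difference of −0.49 that did not pass in limma (adjusted p = 0.34). GSVIVT00020441001 had −0.77 after PHC and 0.96 after P, a difference of −1.73 that was not tested, and it was well above background on 0 of 9 arrays in both channels.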

How the results depend on the processing

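Both normexp settings change background correction and normalization together, and the cause of what moved under them was not tested. Under normexp with loess, dirigent protein 22 (GSVIVT00024744001) gave 0.53 after P, 3.98 after PHC and 3.45 for PHC minus P, and dirigent protein 7 (GSVIVT00024739001) gave 0.53, 3.21 and 2.28 after P, HC and PHC, 2.68 for HC minus P and 1.75 for PHC minus P. Under normexp with median centring, which shifted the median of all tested probes by 0.13 for P and 0.23 for PHC and raised the share of higher among called probes from 82.8, 52.1 and 53.5% to 95.7, 82.0 and 88.0% for P, HC and PHC (86.6, 69.2 and 59.4% under loess), dirigent protein 22 gave 0.28 after P and 4.45 after PHC, and dirigent protein 7 gave −0.061, 3.34 and 2.33 after P, HC and PHC and 2.39 for PHC minus P. A mean of 3 arrays cannot move by as much as its SD when an array is left out, so that comparison cannot show how stable the means are. Without PHC replicate 1 the PHC mean of the dirigent family gene was 0.27, and without PHC replicate 2 it was −0.64. The HC mean of dirigent protein 22 was 6.56 without HC replicate 3 and 7.51 without HC replicate 2.

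Counts of calls moved as follows. Entry probes after HC were 0 with each treatment fitted alone. Monolignol probes after HC were 0 under loess, 0 fitted alone and 3 with no fold limit, and after PHC 6 with no fold limit. Peroxidases after HC were 8 under loess and 9 under median centring, and after PHC 14 under median centring. Isoflavone reductases after HC were 2 with no fold limit and 0 fitted alone, and after PHC 0 under loess, median centring or no filter on dim probes and 2 with no fold limit. With arrays left out, called relatives after P ranged from 1 to 4 (2 without P replicate 2, 1 without P replicate 3), entry probes from 0 to 3 after P, 0 to 4 after HC and 2 to 5 after PHC, monolignol probes after HC from 0 to 1, peroxidases after P from 1 to 10, and isoflavone reductases from 0 to 1 after HC and after PHC.

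Same-numbered arrays deviated together in 8 of 9 pairs (r over 0.1; range 0.00309 to 0.628), and 9 of 9 arrays correlated best with their own number. With a replicate block, called relatives were 4, 3 and 4 after P, HC and PHC, as without it, entry probes after P were 3 in place of 2 and peroxidases after HC 21 in place of 20.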
